A study of Homo sapiens with 15 samples.

Results

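The 28S 3' end is the far end of the 28S ribosomal RNA gene in the human ribosomal DNA unit, taken here as every listed cytosine beyond position 11400 of that unit that held at least 10 reads in at least 2 libraries of any one group. The rule used coverage and position but no methylation value. It found 365 cytosines of 3376 that met the same read rule over the whole unit. Of these, 116 were CpG sites, 84 lay in CHG context and 165 in CHH context, where H stands for any base except G. They ran from position 11549 to position 12951 and spanned 1403 bp, with the first CpG at 11571 and the last at 12931. That these positions belong to the 28S gene comes from the published layout of the reference unit and was not checked against its record.

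The cells were one human lymphoblastoid cell line, which is a culture of B lymphocytes immortalised with Epstein-Barr virus, grown in RPMI medium. The treated cells received 5 µM hexavalent chromium for 24 hours, and libraries came from days 3, 7 and 14 (n = 3 each). The control group held 6 libraries in 2 sets of 3, to which the titles give no day. The protocol speaks of 2 biological replicates, whereas the labels number 3 libraries per group or control set and do not say which share a culture. Each p-value therefore reflects variation among libraries, some of which may be technical replicates. All groups share the cell line, and no second line was measured.

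The 28S rRNA is the large RNA of the 60S ribosomal subunit and holds the centre that joins amino acids. RNA polymerase I transcribes it as part of a long precursor that also carries the 18S and 5.8S rRNAs. Human cells hold many copies of the ribosomal DNA repeat in clusters on several chromosomes, some active and some silent, and silent repeats are known to carry methylated CpGs. RefSeq lists 5 copies of the 28S gene by name, RNA28SN1 to RNA28SN5. A methylation level here averages the repeats that were amplified and cannot be assigned to one of them. Bisulfite deaminates unmethylated cytosine, which is then sequenced as T, while methylated cytosine remains C. The methylation level of a CpG is the percent of C among its C and T calls. CHG and CHH cytosines are seldom methylated in lymphocytes, so their C calls served as a local measure of incomplete conversion.

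Coverage of the 28S 3' end was uneven along its length and between groups. The libraries held 28716783 to 95852393 calls over the whole unit. The 28S 3' end took 2.45 to 10.3% of these calls in the control libraries, 2.67 to 4.68% at day 3, 12.8 to 19.3% at day 7 and 6.82 to 10.5% at day 14. All day 7 libraries thus lay above every control library. The number of its CpG sites that a library listed with at least 10 reads was 65 to 80 in controls, 66 to 89 at day 3, 96 to 111 at day 7 and 109 to 116 at day 14. Of the 116 CpG sites, 64 held at least 10 reads in all 15 libraries and could be tested. Another 36 reached that depth in no control library, and 16 reached it in some control libraries only.

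**Figure D1:**
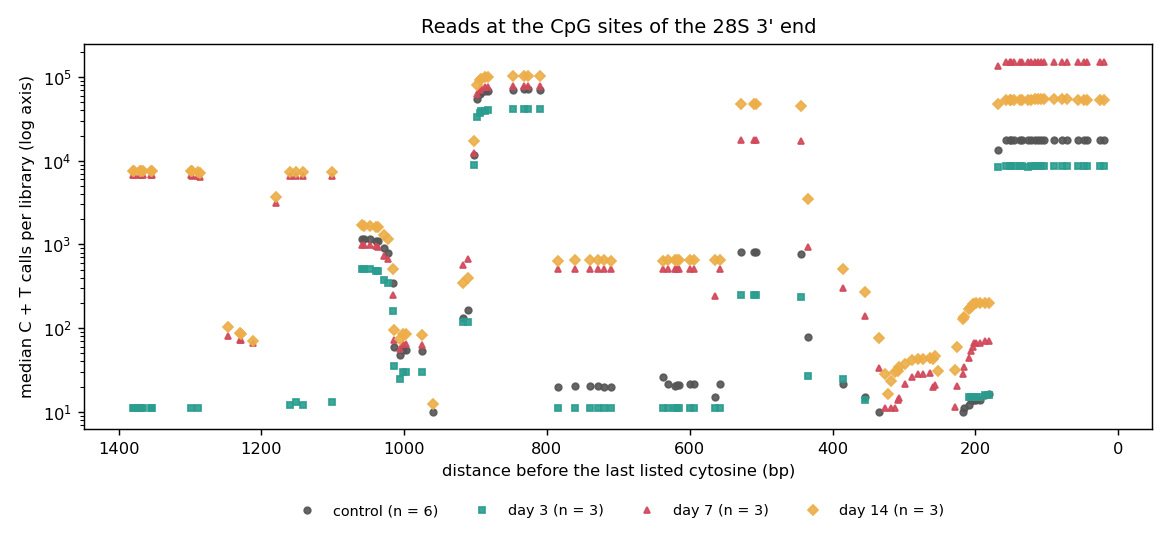
Median count of C and T calls per library (log axis) at each CpG site of the 28S 3' end, against the distance in bp before the last listed cytosine, for controls (grey circles), day 3 (green squares), day 7 (red triangles) and day 14 (yellow diamonds). Coverage moves in blocks, and each median is taken over the libraries of a group that listed the site. In the block nearest the 3' end the library medians at day 7 (68518 to 188950) stand above those of day 3 (4198 to 22937). The day 7 medians overlap those of controls (10733 to 95870).

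The CpG sites fell into 10 stretches, numbered here from 5' to 3'. Stretch 1 (11571 to 11850, 20 sites) was listed almost only at days 7 and 14. Stretch 2 ran from 11892 to 11976 with 13 sites tested. Tested sites between 12034 and 12241 formed stretches 3 to 5, and those between 12321 and 12444 formed stretches 6 and 7. Stretch 8 held the sites 12507 and 12517. Stretch 9 (12566 to 12770, 29 sites) was sparse in controls, and stretch 10 ran from 12782 to 12931 with 21 sites tested. Neighbouring sites were joined into segments where the gap between tested sites was at most 50 bp. Segments were also cut where control coverage changed at least 20-fold, a division chosen after seeing the data that gives stretches 3 to 7. The remaining CpGs, 11992, 12313 and 12387, were not listed in all 15 libraries and were left out of the tests.

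**Figure D2:**
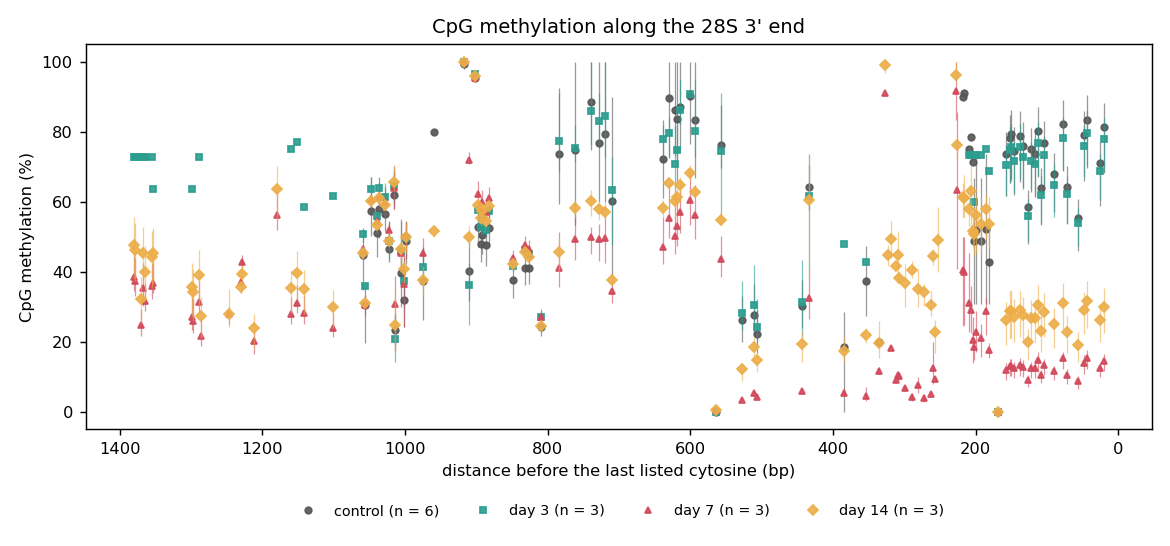
CpG methylation in percent at each CpG site of the 28S 3' end, against the distance in bp before the last listed cytosine. Markers are group means and vertical lines run from the lowest to the highest library. At the 20 sites nearest the 3' end the day 7 means (8.77 to 15.5%) lie far below the control means (55.5 to 83.3%), with day 14 between them.

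Over the 64 tested CpG sites the mean methylation of the control libraries was 61.1% ± 5.12 (SD, n = 6), with a lowest library of 53.5%, a median of 61.2% and a highest of 68.0%. At day 3 the libraries stood at 61.7, 57.0 and 65.2%, inside the control range. At day 7 they stood at 36.1, 35.8 and 36.9%, and at day 14 at 40.0, 43.0 and 44.9%. Every day 7 and day 14 library lay below every control library, and every day 14 library lay above every day 7 library. The means were 61.3% ± 4.12 at day 3, 36.3% ± 0.599 at day 7 and 42.6% ± 2.44 at day 14 (SD, n = 3 each). These means give each site the same weight, and the stretches below moved in different ways.

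Site by site, edgeR's quasi-likelihood test with Benjamini-Hochberg adjustment over the 851 tested CpG sites of the whole unit called no site of the 28S 3' end at day 3, where 0% of the 851 were called. At an unadjusted p below 0.05 the count was also 0 of 64, and limma on log ratios called 0 as well. The median difference from control was 0.460 percentage points over the 64 sites and 2.31 over all 851. At day 7, 46 of the 64 were called (64.2% of the 851), of which 38 fell (41.8% of the 851) and 8 rose (22.3% of the 851). The median difference was -26.3 points over the 64 sites and -5.30 points over all 851.

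At day 14 the test called 38 of the 64 (71% of the 851), of which 36 fell (46.1% of the 851) and 2 rose (24.9% of the 851). The median difference was -17.7 points over the 64 sites and -5.52 over the 851. Between day 7 and day 14, edgeR called 26 of the 64 (18.6% of the 851), of which 25 were higher at day 14 (13.9% of the 851) and 1 was lower (4.7% of the 851). That comparison had a median of 8.02 points over the 64 sites and 1.07 over the 851. Its count depended on single libraries, with 7 sites without day 7 replicate 1 (6.7% of the 851), 10 without day 14 replicate 2 (9.05%) and 7 without day 14 replicate 3 (7.17%). When only the 6 libraries of both days were fitted it was 3 (0.47%). The comparisons of days 3, 7 and 14 with control share the control libraries, and the last comparison shares the day 7 and day 14 libraries with them.

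Stretch 10, the one nearest the 3' end, carried the largest fall of the tested segments of the 28S 3' end. Averaged over its 21 sites, methylation in the control libraries had a lowest value of 58.5%, a median of 71.0% and a highest of 76.2%. At day 3 the libraries stood at 70.1, 59.0 and 72.7%, within the control range. At day 7 they stood at 9.34, 13.0 and 13.8%. At day 14 they stood at 19.1, 27.4 and 30.5%. The groups of day 7 and day 14 overlapped neither with controls nor with each other.

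The mean of stretch 10 was 70.1% ± 6.16 (SD, n = 6) in controls, 67.3% ± 7.28 at day 3, 12.0% ± 2.36 at day 7 and 25.6% ± 5.90 at day 14 (SD, n = 3 each). In limma, with adjustment over the 26 segments of the unit, the log2 ratio of methylated to unmethylated reads fell by 4.23 at day 7 (SE 0.297, adjusted p = 1.36e-08) and by 2.93 at day 14 (SE 0.297, adjusted p = 4.65e-07). From day 7 to day 14 it rose by 1.3 (SE 0.343, limma adjusted p = 0.00754). At day 3 the difference was -0.23 (SE 0.297, limma adjusted p = 0.932). The two-sided exact permutation test of the percent values gave p = 0.0238 for day 7 and for day 14, the smallest p that 84 assignments allow, and 0.0516 for each after adjustment over the segments. Between days 7 and 14 the exact permutation test gave p = 0.1, the smallest that 3 libraries against 3 allow.

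Across the unit, limma called 16 of the 26 segments at day 7 (61.5%), 18 at day 14 (69.2%) and 8 between both days (30.8%), against 0 at day 3 (0%). In the 28S 3' end it called 3 of 5 segments at day 7, 2 of 5 at day 14, 2 of 5 between both days and 0 of 5 at day 3. With the finer division into 8 segments here and 39 in the unit, the counts were 7 of 8 at day 7 (61.5% of the 39), 5 of 8 at day 14 (61.5%), 3 of 8 between both days (25.6%) and 0 of 8 at day 3 (0%). At day 7, 2 were higher and 5 lower, and at day 14, 1 was higher and 4 lower. All 3 between both days were higher at day 14. For each of stretches 5, 6 and 7, exact permutation of the percent values gave adjusted p = 0.0489 at day 7 and 0.0442 at day 14.

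**Figure D3:**
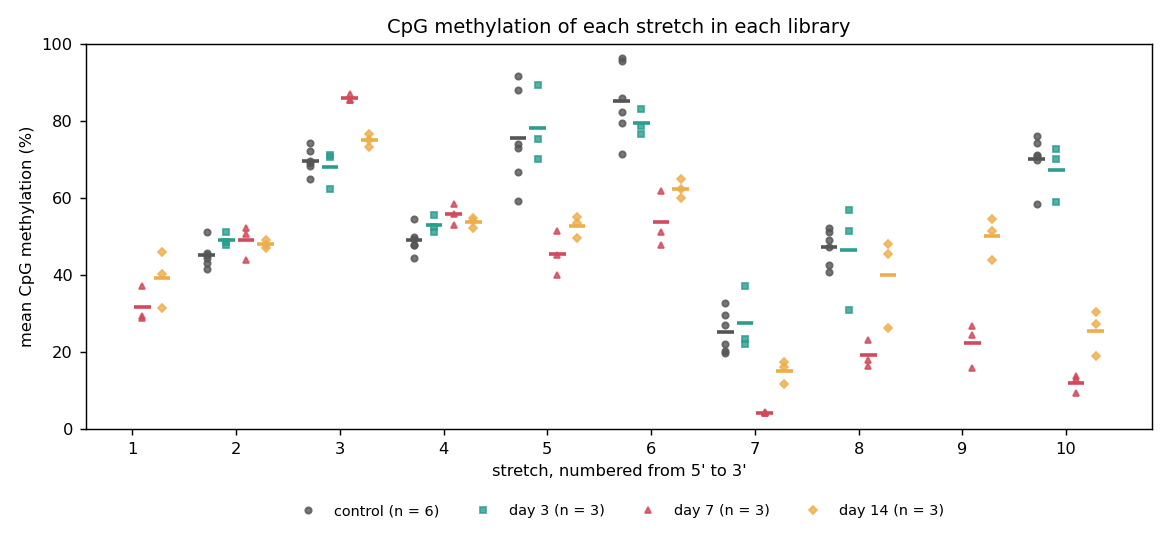
Mean CpG methylation in percent for each library in each of the 10 stretches, numbered from 5' to 3'. Points are libraries and short bars are group means. Stretches 1 and 9 show only day 7 and day 14, over the sites listed in all 6 of those libraries. In stretch 10 the day 7 libraries (9.34 to 13.8%) and day 14 libraries (19.1 to 30.5%) lie below every control library, whereas in stretch 2 the groups overlap.

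Inside stretch 10, 20 of the 21 sites fell at days 7 and 14 in edgeR's test, and the same number were called higher at day 14 than at day 7. Over the 851 sites of the unit, the shares were 41.8% lower at day 7, 46.1% lower at day 14 and 13.9% higher between both days. The site of stretch 10 with the largest fall was 12907. Its control libraries ran from 69.6 to 90.3%, with a median of 84.4% on 10733 to 95596 reads. At day 7 its libraries stood at 12.3, 16.6 and 17.6%, and at day 14 at 24.0, 33.4 and 37.2%. No library of either day reached the control range. The log2 odds ratio was -4.88 at day 7 (edgeR adjusted p = 6.12e-08) and -3.55 at day 14 (adjusted p = 1.3e-06).

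The last CpG of all, 12931, behaved in the same direction. Controls lay between 68.3 and 88.0%, with a median of 82.8%. Its libraries stood at 11.6, 15.8 and 16.4% at day 7, against 22.6, 31.6 and 35.3% at day 14. The log2 odds ratio was -4.76 at day 7 (edgeR adjusted p = 3.61e-08) and -3.45 at day 14 (adjusted p = 8.07e-07). Both days thus lay below the control range at the 3' limit of the profile.

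The return from day 7 to day 14 was smaller and less certain at single sites. At 12907 the mean rose from 15.5 to 31.5%, with a log2 odds ratio of 1.33 (edgeR adjusted p = 0.0461). At 12873 it rose from 15.4 to 31.2%, with a log2 odds ratio of 1.32 (edgeR adjusted p = 0.0348). At both sites every day 14 library lay above every day 7 library. Both calls were lost without day 7 replicate 1 (adjusted p = 0.148 for 12907 and 0.119 for 12873), without day 7 replicate 2 (0.0879 and 0.0681), without day 14 replicate 2 (0.148 and 0.123), without day 14 replicate 3 (0.167 and 0.137) and in a fit of the 2 days alone (0.0706 for both), all in edgeR. The limma result for the whole stretch kept its call without each library in turn.

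The site-to-site shape of stretch 10 was alike in all groups while its height differed. Leaving out 12782, the group mean of each of the 20 other sites was divided by its control mean. The ratio lay between 0.156 and 0.187 at day 7 (median 0.169), between 0.342 and 0.381 at day 14 (median 0.366), and between 0.952 and 0.971 at day 3 (median 0.959). In points, the falls ran from 46.7 to 67.8 at day 7 and from 36.3 to 51.7 at day 14. Site 12907 was the highest, 12873 came next and 12895 was the lowest in every group. As a description across these 20 sites, Pearson's r with the control means was 0.999 at day 3, 0.968 at day 7 and 0.992 at day 14, and Spearman's rho was 0.995, 0.961 and 0.986. Sites of one stretch share reads and libraries and are not independent.

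Site 12895 shows the lower edge of that shape. Controls lay between 45.8 and 60.8%, with a median of 56.3%. It stood at 6.50, 9.58 and 10.2% at day 7, against 14.1, 20.7 and 22.8% at day 14. These days again lay below every control library.

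Site 12782, the first CpG of stretch 10, was at or near 0 in every library. Its highest value was 0.0732%, in a day 3 library, and its lowest coverage in any library was 2733 reads. Its control mean was 0.0243% ± 0.0182 (SD, n = 6). It thus stood apart from the 20 sites that follow it in the same stretch, whose lowest control mean was 55.5%.

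Reads of stretch 10 also changed in number. Scaled to 1000000 calls of a library (RPM), its 20 sites held a median of 146 to 1281 reads in controls, 86.4 to 297.5 at day 3, 1587 to 2631 at day 7 and 579 to 709 at day 14. The methylated reads among these numbered 334 ± 323 RPM in controls (SD, n = 6), 275 ± 66.8 at day 7 and 175 ± 42.3 at day 14 (SD, n = 3 each). The unmethylated reads numbered 107 ± 99.6 in controls, 1925 ± 509 at day 7 and 463 ± 63.0 at day 14. Both control means rest on control replicate 2, and without it they were 205 ± 76.3 RPM methylated and 67.8 ± 30.4 unmethylated (SD, n = 5). In RPM of unmethylated reads, every day 7 and day 14 library exceeded every control library, whose highest value was 302.5. In methylated reads the day 7 libraries (217 to 348) lay inside the control range (117 to 979). RPM values depend on what else a library amplified, so these numbers are relative to the other products of the same library.

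**Figure D4:**
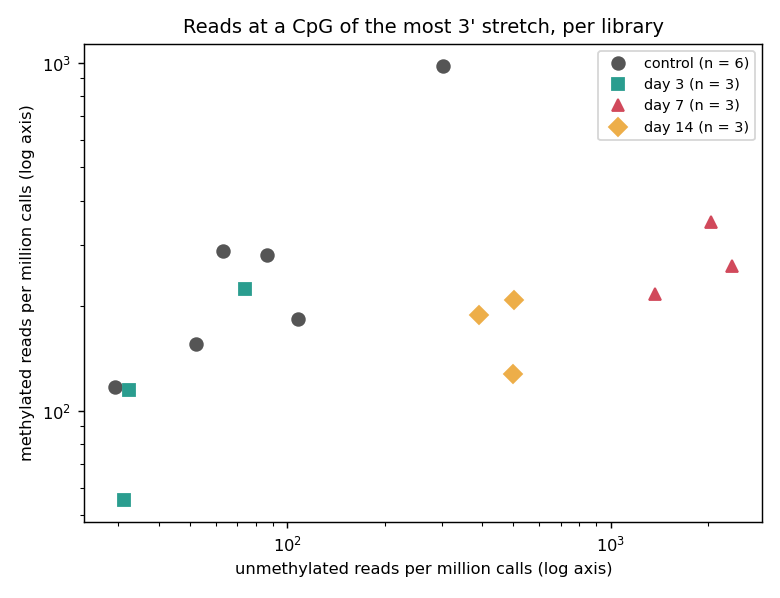
Methylated against unmethylated reads of each library, both in RPM on log axes, each the median over 20 CpG sites of stretch 10, 1 point per library. The day 7 points lie far to the right (1369 to 2368 RPM unmethylated, against 29.3 to 302.5 in controls) at a height within that of the controls.

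Control replicate 2 held 1281 RPM in stretch 10, above the day 14 libraries and below every day 7 library, and its mean over the 20 sites was 74.7%. When reads were thinned to equal coverage at each site, edgeR called 37 of the 64 sites at day 7 (56.5% of the 851), 31 of them lower. It called 26 at day 14 (60.6% of the 851), 25 of them lower, and 14 between both days (4.58% of the 851), all higher at day 14. The PCR reads carry no molecular identifiers, so coverage counts reads and not independently sampled repeats.

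In stretch 10 the share of C calls over CHG and CHH positions, the local measure of incomplete conversion, was 0.921% ± 0.288 in controls (SD, n = 6), 0.944% ± 0.208 on day 3, 1.55% ± 0.217 at day 7 and 2.31% ± 0.367 at day 14 (SD, n = 3 each). These shares were taken over 31 positions. In a slightly larger set of 33 tested non-CpG positions, the highest group mean at any position was 3.08% in controls, 4.43% at day 7 and 7.0% at day 14. With the local unconverted share removed, the log2 difference of stretch 10 was -4.49 at day 7 and -3.08 at day 14, against -4.23 and -2.93 without that step.

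Stretch 8 held the sites 12507 and 12517 and showed a fall at day 7 that was followed by higher values at day 14. Its control libraries ran from 40.8 to 52.2%, with a median of 48.3%. Day 3 libraries stood at 51.6, 31.1 and 56.9%, day 7 libraries at 16.5, 18.1 and 23.1%, and day 14 libraries at 26.3, 48.0 and 45.5%. Day 7 lay below every control, and day 14 overlapped the controls through replicates 2 and 3. The log2 ratio fell by 2.34 at day 7 (SE 0.358, limma adjusted p = 4.56e-05), differed by -0.52 at day 14 (SE 0.358, adjusted p = 0.210) and rose by 1.82 between both days (SE 0.414, adjusted p = 0.00349). Exact permutation of the percent values gave p = 0.0238 at day 7 (0.0516 after adjustment) and p = 0.1 between both days. With the reads of both sites summed, the day 14 difference was -0.81 and was called (limma adjusted p = 0.0372).

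At 12507 the values at day 7 were 6.49, 6.06 and 5.35%, and at day 14 they were 14.3, 23.1 and 21.1%. The day 14 values exceeded all those of day 7, with a log2 odds ratio of 1.91 (edgeR adjusted p = 0.00299). In a fit of the 2 days alone its adjusted p was 0.0585. At 12517 the values were 26.4, 30.1 and 40.8% at day 7 against 38.4, 73.0 and 69.9% at day 14, and these ranges overlapped. Its log2 odds ratio was 1.78 (edgeR adjusted p = 0.0205), and the call was lost without day 7 replicate 1 (0.0698) or 2 (0.0635) and without day 14 replicate 2 (0.123) or 3 (0.0928). It was also lost in a fit of the 2 days alone (0.132), and with thinned reads the log2 odds ratio was 0.59 (edgeR adjusted p = 0.697). The median coverage of the stretch ran from 50 to 1629 reads in control libraries and from 5204 to 27110 at day 7.

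The tested sites from 12321 to 12444 fell as one segment at both later days. Their mean was 67.2% ± 8.12 in controls (SD, n = 6), 63.9% ± 3.16 on day 3, 38.9% ± 5.10 at day 7 and 48.3% ± 1.76 at day 14 (SD, n = 3 each). The log2 ratio fell by 2.58 at day 7 (SE 0.403, limma adjusted p = 4.84e-05) and by 1.63 at day 14 (SE 0.403, adjusted p = 0.00288). Exact permutation of the percent values gave p = 0.0238 for each of these days, and 0.0516 after adjustment. All 10 sites were called lower by edgeR at both days (41.8% of the 851 at day 7 and 46.1% at day 14). Between both days the log2 difference was 0.95 (SE 0.465, limma adjusted p = 0.154). With reads summed it was 1.53 and was called (limma adjusted p = 0.00237).

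Stretch 7, the sites from 12423 to 12444, had low methylation already in controls. The 6 controls spanned 19.8 to 32.9%, with a median of 24.6%. Day 7 libraries stood at 4.64, 4.23 and 4.21%, and day 14 libraries at 11.7, 17.5 and 16.3%. Each day lay below all controls and the days did not overlap. The log2 ratio fell by 2.9 at day 7 (limma adjusted p = 7.01e-07) and by 0.94 at day 14 (adjusted p = 0.00960), and it rose by 1.96 between both days (adjusted p = 0.00112). The day 14 call was lost without day 14 replicate 1 (limma adjusted p = 0.0612). Site 12441 stood for this stretch among the largest rises between both days, from 5.51 to 18.6% (log2 odds ratio 1.96, edgeR adjusted p = 0.00165).

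The reads of stretch 7 numbered 21.6 ± 24.7 RPM in controls (SD, n = 6), 390 ± 157 on day 7 and 556 ± 330 at day 14 (SD, n = 3 each). Unmethylated reads had group means of 16.4 RPM in controls, 374 at day 7 and 469 at day 14. Methylated reads had group means of 5.25 in controls, 16.5 at day 7 and 87.4 at day 14. Its unconverted share outside CpG was 0.532% ± 0.284 in controls, 0.207% ± 0.0200 at day 7 and 0.275% ± 0.0449 at day 14. Whether coverage had a part in the lower percent was not tested beyond the thinned counts given above.

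Stretches 5 and 6 had high methylation on few reads in controls and lower methylation on many reads later. In stretch 5 (12167 to 12241, 6 sites) the control libraries ran from 59.4 to 91.7%, with a median of 73.6% on library medians of 10 to 87 reads. Its day 7 libraries stood at 45.2, 40.2 and 51.5% on 235 to 1056 reads, and its day 14 libraries at 53.5, 49.8 and 55.0%. Both days lay below every control. The log2 ratio fell by 2.08 at day 7 (SE 0.544, limma adjusted p = 0.00352) and by 1.66 at day 14 (SE 0.544, adjusted p = 0.0158), and the day 14 call was lost without day 14 replicate 2 (0.0541).

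In stretch 6 (12321 to 12394, 7 sites) the control libraries ran from 71.3 to 96.2%, with a median of 84.1% on library medians of 10 to 89 reads. Its day 7 libraries stood at 51.2, 47.9 and 61.9%, and its day 14 libraries at 62.5, 60.0 and 64.9%. Neither day overlapped the controls. The log2 ratio fell by 2.44 at day 7 (SE 0.506, limma adjusted p = 0.000594) and by 1.92 at day 14 (SE 0.506, adjusted p = 0.00500). The control values of both stretches rest on so few reads that single sites at 100% in a library, such as 12330, can come from 10 reads.

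Single sites of stretches 5 and 6 were called with wide control ranges. Site 12212 ran from 74.7 to 100% in controls (median 89.2%) and stood at 52.9, 45.0 and 51.5% at day 7 and 61.2, 55.8 and 63.3% at day 14. Its log2 odds ratio was -2.45 at day 7 (edgeR adjusted p = 0.000178) and -1.84 at day 14 (adjusted p = 0.00207). At 12330 the ratio was -2.09 (edgeR adjusted p = 0.000868) and -1.48 (adjusted p = 0.00866), with control values of 73.0 to 100% and means of 50.2% ± 8.04 at day 7 and 60.3% ± 4.50 at day 14 (SD, n = 3 each). With thinned reads, the calls of 12330 at both days (adjusted p = 0.179 and 0.0704) and of 12212 at day 14 (adjusted p = 0.388) were lost in edgeR.

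The other named falls of these stretches were 12321 at day 7 and 12167 at day 14. Site 12321 fell from 89.6% ± 10.5 (SD, n = 6) to 55.2% ± 7.73 at day 7 (SD, n = 3), with an edgeR adjusted p of 0.000614. Site 12167 fell from 73.7% ± 14 (SD, n = 6) to 45.6% ± 5.09 at day 14 (SD, n = 3), with an edgeR adjusted p of 0.00573. At both sites the ranges did not overlap. Against the second control set alone the call of 12167 was lost (edgeR adjusted p = 0.050004).

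Stretch 2 passed no test in any comparison. Its control libraries ran from 41.5 to 51.2%, with a median of 44.9%. Day 3 libraries stood at 51.1, 47.9 and 48.7%, day 7 libraries at 52.3, 50.8 and 44.0%, and day 14 libraries at 47.9, 49.0 and 47.0%. All 3 groups overlapped the controls. The log2 difference was 0.23 at day 7 (SE 0.174, limma adjusted p = 0.280) and 0.17 at day 14 (SE 0.174, adjusted p = 0.418). EdgeR called 0 of its 13 sites in every comparison. Over the 851 sites the shares were 0% at day 3, 64.2% at day 7, 71% at day 14 and 18.6% between both days. Its library medians of coverage were 317 to 1124 reads in controls and 502 to 992 at day 7, and these ranges overlapped. The sites from 11937 to 11976 held far fewer, 29 to 94 reads in controls and 27 to 115 at day 7. Their local unconverted share had day 7 means from 3.98% at 11937 to 29.6% at 11953, against 2.08 and 7.17% in controls. Over the whole stretch the unconverted share outside CpG was 0.995% ± 0.163 in controls (SD, n = 6), 5.72% ± 2.68 on day 7 and 1.65% ± 0.410 at day 14 (SD, n = 3 each).

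Stretch 4 (12049 to 12141, 10 sites) was deeply covered in every group and held a small rise. Its library medians of coverage were 39809.5 to 81816.5 reads in controls and 34686.5 to 90571.5 at day 7. Its control libraries ran from 44.5 to 54.6%, with a median of 48.7%. At day 7 the libraries stood at 58.6, 56.0 and 53.1%, and day 14 libraries at 54.0, 52.4 and 54.8%. Both days overlapped the controls. The log2 difference at day 7 was 0.41 (SE 0.168, limma adjusted p = 0.0451), and at day 14 it was 0.29 (SE 0.168, adjusted p = 0.135). Exact permutation of the percent values gave an adjusted p of 0.0743 at day 7. Removing the local unconverted share brought the day 7 difference to 0.24 (limma adjusted p = 0.203), and the call was lost without control replicates 1, 2, 3, 5 or 6 or day 7 replicates 1 or 2 (adjusted p from 0.0511 to 0.163).

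Non-CpG cytosines moved beside that rise. Over stretch 4 their unconverted share was 1.10% ± 0.288 in controls (SD, n = 6), 7.38% ± 1.58 on day 7 and 3.17% ± 0.591 at day 14 (SD, n = 3 each). Site 12057 stood at 48.0% ± 4.03 in controls (SD, n = 6), 57.8% ± 3.66 on day 7 and 55.2% ± 1.67 at day 14 (SD, n = 3 each). Its log2 odds ratio was 0.57 at day 7 (edgeR adjusted p = 0.0109) and 0.42 at day 14 (adjusted p = 0.0468), with overlapping ranges at both days. The day 14 call was lost under 15 alternatives, among them limma on log ratios (adjusted p = 0.0548) and removal of the local unconverted share (adjusted p = 0.0615). The day 7 call was lost without day 7 replicate 1 (edgeR adjusted p = 0.0720) and against the second control set alone (adjusted p = 0.0763). Site 12049 in the same stretch lay between 94.3 and 97.3% in every library.

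Stretch 3 (12034 and 12041) lay among cytosines that were largely unconverted in every group. Its library medians of coverage were 70 to 208.5 reads in controls, far below those of stretch 4, and 230.5 to 726.5 at day 7. Its own non-CpG positions held 61.3% ± 3.87 C calls in controls (SD, n = 6). The share was 58.1% ± 1.02 at day 3, 84% ± 1.55 at day 7 and 73.1% ± 2.46 at day 14 (SD, n = 3 each). The CHG position 12044 stood at 94.3% in controls and 98.5% at day 7. At day 7 the log2 difference of stretch 3 was 2.45 (SE 0.398, limma adjusted p = 8.97e-05). It was 1.72 at day 14 (SE 0.398, adjusted p = 0.00202). Exact permutation of the percent values gave adjusted p = 0.0489 and 0.0774. With reads summed, the day 14 difference was 0.39 and was not called (limma adjusted p = 0.0804). At 100% methylation, as at 12034 in every day 7 and day 14 library, the log2 ratio grows with coverage through the added 0.5. Site 12034 was at or above 98.0% in every library. Its day 14 call (99.2% in controls, 100% at day 14, edgeR adjusted p = 0.0195) was lost without day 14 replicate 3 (0.0600), against the second control set alone (0.0691) and with thinned reads (0.128).

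Site 12041 moved most among the rises. The 6 controls spanned 31.8 to 48.7%, with a median of 39.5%, on 73 to 227 reads, against 244 to 775 reads at day 7. Day 3 libraries stood at 24.8, 41.2 and 42.6%, day 7 libraries at 74.1, 70.8 and 70.9%, and day 14 libraries at 53.1, 46.7 and 49.9%. Day 7 lay above every other group, and day 14 overlapped the controls. The log2 odds ratio was 1.91 at day 7 (edgeR adjusted p = 1.53e-05), and between both days it was -1.37 (adjusted p = 0.00884). The second of these calls was lost with thinned reads (adjusted p = 0.0938) and in a fit of the 2 days alone (adjusted p = 0.0706). The neighbouring CHH position 12036 stood at 53.7% ± 5.52 in controls (SD, n = 6), 78.2% ± 2.54 on day 7 and 67.4% ± 1.38 at day 14 (SD, n = 3 each). How much of the C calls at 12041 came from unconverted cytosines was not tested.

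Taken as one segment, the 18 tested sites from 12034 to 12241 mixed these rises with the falls of stretch 5. The mean was 60.2% ± 5.14 in controls (SD, n = 6), 55.8% ± 1.68 on day 7 and 55.8% ± 1.70 at day 14 (SD, n = 3 each). The log2 difference was -0.19 at day 7 (limma adjusted p = 0.512) and -0.20 at day 14 (adjusted p = 0.465). EdgeR called 8 of its sites higher (22.3% of the 851) and 6 lower (41.8%) at day 7. At day 14 it called 2 higher (24.9% of the 851) and 5 lower (46.1%). Summing the reads, which weights the deep sites of stretch 4, turned the day 7 difference to 0.42 (limma adjusted p = 0.0468).

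Day 3 gave no called site or segment. The sites with the lowest p were 12119 (41.0% in controls, 46.3% at day 3), 12034 (99.2 and 100%) and 11903 (57.4 and 63.7%), each with an edgeR adjusted p of 0.945. Of the 64 CpG sites, 0 had day 3 libraries all above or all below the control libraries, against 4.58% higher and 0.118% lower over the 851.

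Ranges without overlap gave a second view of the later days. At day 7, 36 of the 64 sites had all exposed libraries below all controls (35.1% of the 851) and 2 had them above (18.9% of the 851). At day 14, 35 lay below (39.6% of the 851) and 0 above (22% of the 851). Between both days, 27 sites had all day 14 libraries above those of day 7 (16.6% of the 851) and 1 below (10.6% of the 851). In a fit that also took sites listed in only 2 libraries of a group, edgeR called 6 of 73 sites higher at day 7 (20.4% of 1068) and 41 lower (35.9%). At day 14 it called 1 of 73 higher (21.5% of 1078) and 35 lower (40.4%), and at day 3 it called 0 of 66 in either direction (0% of 1141).

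Conversion was measured at 119 CHG and CHH positions of the 28S 3' end that held at least 10 reads in all 15 libraries. Over all of them the share of C calls was 0.923% ± 0.173 in controls (SD, n = 6), 0.929% ± 0.105 on day 3, 2.38% ± 0.271 at day 7 and 2.09% ± 0.266 at day 14 (SD, n = 3 each). The lowest day 14 library (1.83%) lay above the highest control library (1.09%). At day 7, 37 of the 119 positions had all libraries above all controls (45.9% of the 1182 such positions of the unit) and 6 had them below (1.52%). At day 14 these counts were 31 (45.2%) and 4 (1.78%), and at day 3 they were 1 (0.761%) and 2 (0.254%). Between both days, 32 positions were higher at day 14 (7.36% of the 1182) and 23 were lower (19.6%).

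The unconverted calls gathered in a few places. The positions under 2% numbered 99 of 119 in controls, 100 at day 3, 78 at day 7 and 88 at day 14, by group mean. The 3 positions with the largest differences at day 7 were all in CHG context. Position 12048 stood higher than in controls by 51.0 points at day 7 and 28.6 at day 14, position 12052 by 27.4 and 10.8, and position 12063 by 24.5 and 8.06, as differences of group means. At 12048 the controls ran from 21.4 to 43.1% and the day 7 libraries from 79.2 to 88.1%. These positions lie in stretch 4 or at its edge.

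**Figure D5:**
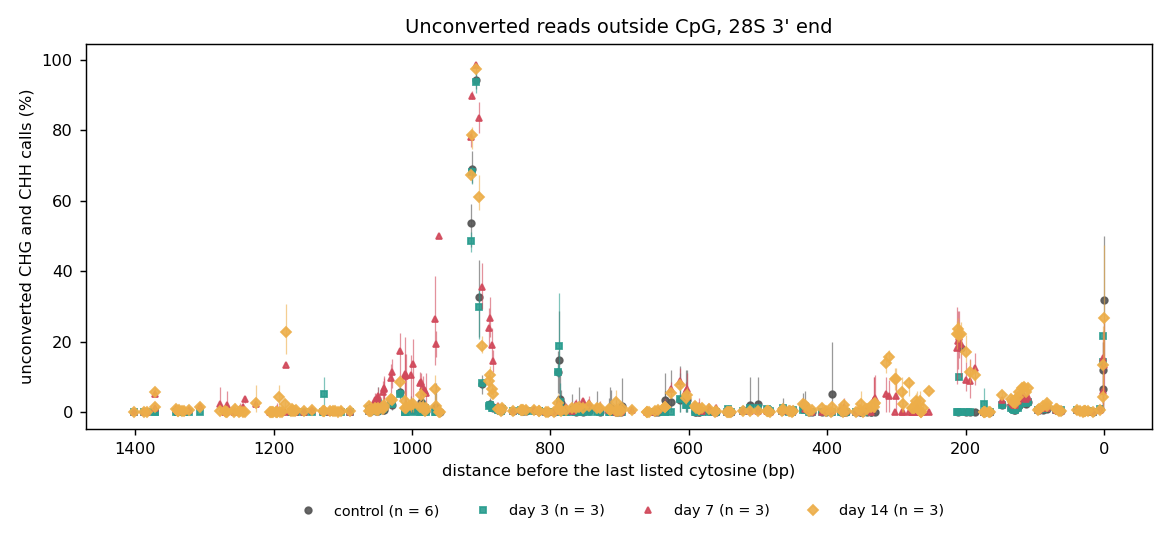
Percent of C calls at CHG and CHH cytosines of the 28S 3' end, against the distance in bp before the last listed cytosine. Markers are group means and vertical lines run from the lowest to the highest library that listed the position. Most positions lie under 2%, with a peak at stretch 3 where all groups are high and day 7 is highest.

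When only CpG sites with a local unconverted share under 2% in every library were kept, a choice made after seeing the data, edgeR called 18 of 21 sites lower at day 7, where 18.7% of the 107 such sites of the unit were called lower. At day 14 it called 16 of 21 lower (15.9% of the 107), and between both days 5 of 21 were higher at day 14 (14% of the 107). No other site of the 21 was called in these comparisons.

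Stretch 1 was listed at its 20 CpG sites in no control library. A single day 3 library listed 13 of them, on 11 to 13 reads. Over the 17 sites that all later libraries listed, day 7 libraries stood at 29.5, 37.3 and 28.8% and day 14 libraries at 31.6, 40.4 and 46.0%. These ranges overlapped, and the means were 31.9% ± 4.71 and 39.3% ± 7.25 (SD, n = 3 each). In an edgeR fit of the sites listed in at least 2 libraries of each day, where 0.26% of 1154 sites were called higher and 0.0867% lower at day 14, it called 0 of its 20 sites (lowest adjusted p = 0.444). The unconverted share outside CpG was 0.653% ± 0.0558 at day 7 and 0.682% ± 0.0887 at day 14 (SD, n = 3 each). The difference from controls was not measurable there, since a library that lists no read at a site gives no level.

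Stretch 9 was listed at some of its 29 CpG sites in 4 control libraries and 1 day 3 library, on 10 to 50 and 14 to 25 reads. Over the 13 sites that all later libraries listed, day 7 libraries stood at 26.8, 16.1 and 24.6% and day 14 libraries at 44.1, 51.5 and 54.6%. All 13 sites had every day 14 library above every day 7 library, against 16.6% of the 851 tested sites, which do not include these 13. The means were 22.5% ± 5.66 and 50.1% ± 5.40 (SD, n = 3 each), but the same edgeR fit called 0 of its 23 sites (lowest adjusted p = 0.0511). Among these 13 sites, 12566 and 12597 were lowest, with day 7 values of 4.52 to 6.76% and 3.03 to 7.14%. The unconverted share was 2.91% ± 1.57 at day 7 and 4.93% ± 0.770 at day 14 (SD, n = 3 each), and its part in the difference was not tested.

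A few sites kept an extreme level in all libraries that listed them. Sites 12782 and 12387 lay near 0, with 12387 at no more than 1.49% in any of its 14 libraries. Site 12034 lay at or above 98.0%, and 12049 at or above 94.3%, in every library. Site 12387 lies inside stretch 6 among sites whose control means were well above it, and its coverage in controls was as low as 11 reads.

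Control replicate 6, the last library of the second control set, was the lowest control in stretches 5, 6 and 10. Its stretch 10 mean of 58.5% stood below the other controls, which lay between 69.9 and 76.2%. Without it, the day 7 and day 14 falls of that stretch were still called, and the log2 difference at day 7 without any single library stayed between -4.40 and -4.05. With the second control set alone, edgeR called 38 of the 64 sites at day 7 (54.9% of the 851), 37 of them lower. At day 14 it called 26 (55.3% of the 851), all lower.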

How the data were processed

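Genomic DNA of 15 libraries was bisulfite converted, amplified with primers for the ribosomal DNA unit and sequenced, per the labels' protocols. Each deposited file gives, per the file headers, the depth, the count of C reads and the count of T reads at each listed cytosine, with a methylated fraction that the authors computed as C over C plus T. BSMAP 2.90, SAMtools 1.3.1, Trim Galore and methylKit are named, with hg19 and GRCh37, per the submitters' processing notes; the part each played is not given in the sources used here. Positions are those of the ribosomal DNA reference unit in the files, counted from the transcription start. No sequence of that unit was used here.

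Every level was recomputed from the deposited counts. CpGs covered by 10 or more reads in each of the 15 libraries (851 in the unit, 64 here) were fitted as methylated and unmethylated counts with edgeR 4.0.16 (R 4.3.3), with library effects and group terms for methylation, all libraries sharing one estimate of spread. Benjamini-Hochberg adjustment ran over the 851 sites and calls were made below 0.05. Segments (gaps up to 50 bp) were tested with limma 3.58.1 on the mean of log2((methylated + 0.5)/(unmethylated + 0.5)), adjusted over all segments of the unit, and with exact permutation tests of percent. Unless another tool is named, adjusted p-values of sites come from edgeR and those of segments from limma, and differences of segments are of that log2 mean. The local unconverted share is that of non-CpG cytosines within 100 bp.

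For each comparison the named sites were the called ones with the largest changes, at most 5 in each direction and no more than 2 from a segment, whose later libraries all lay on one side of the other group's mean, or the 3 with the lowest p where none was called. Sites 12895, 12782, 12387, 12049, 12566 and 12597, and the segments cut at steps of depth, were chosen after their values were seen. The members and the tests were chosen with earlier results of these data known. Depth is given with the results as ranges or group means, for the whole unit and for most stretches. Alternatives covered coverage, the tool, the libraries fitted, thinning, conversion, control sets and each library left out.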

Additional observations from a re-analysis of the deposited data

Results flagged for a closer look

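Of 30 groups of control values checked, 4 held a library far from the rest, where chance marks about 1 in 20. All were control replicate 6, and they overlap, since the same stretch and 2 of its sites are counted. Its value was 58.5% for the mean of stretch 10 (12782 to 12931), which is 1 segment under both divisions, 68.8% at site 12873 and 69.6% at site 12907. The other control libraries lay between 69.9 and 76.2% in stretch 10.

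Day 14 and day 7 differed in a direct test in the segments 12507 to 12517, by 1.82 on the log2 scale, and 12782 to 12931, by 1.3, with limma adjusted p-values of 0.00349 and 0.00754. Both were higher at day 14.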

How the results depend on the processing

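The day 3 counts of 0 sites and 0 segments were the same under every alternative run. The site counts of day 7 (46) and day 14 (38) ran from 40 to 48 and from 30 to 38 with each library left out, and that between both days (26) from 7 to 26. With 100 reads in every library the counts were 27, 21 and 17 of 39 sites, which are fewer sites by construction. With a local unconverted share under 2% they were 18, 16 and 5 of 21. Shares of the whole unit were not counted with 100 reads, nor for most fits that left out a library. Those counts cannot be set against the rest of the unit. Between both days, thinning gave 14, a fit of the 6 libraries 3, and sites listed in at least 2 libraries of each day 3 of 109; the cause was not tested. Segment counts (3, 2 and 2) kept their values with each library left out. With a 300 bp gap they were 1, 1 and 0 of 1, cut at depth steps 7, 5 and 3 of 8, and with reads summed 4, 3 and 3 of 5. With 100 reads they were 2 of 3 at day 7, 1 of 3 at day 14 and 1 of 3 between both days. The 2 at day 7 were 1 higher and 1 lower, whereas the main fit called 0 higher and 3 lower. For segments, shares of the whole unit were counted only in the main fit and with cuts at depth steps.

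The mean methylation difference was -37.9 points at day 7 with reads summed and -28.9 with 100 reads. Between both days it was 16.1 with reads summed and 10.5 over every listed site. The difference in unconverted share, averaged over positions, was -0.158 points at day 3, 2.55 at day 7 and -1.51 between both days. In CHG alone it was 2.03, 1.42 and -0.606 at day 7, day 14 and between both days, in CHH alone 1.19 at day 7, and with 100 reads 1.43 at day 14.

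Differences that changed sign were small or uncalled, except that the segment 12034 to 12241 gave 0.418 at day 7 with reads summed (limma adjusted p = 0.0468) and 0.291 at day 14. Between both days, removing the unconverted share gave 0.0613 for that segment and 0.101 for 11892 to 11976. Leaving libraries out gave -0.0664 to 0.0612 and -0.222 to 0.0355. At day 3, reads summed gave 0.0357 for 12507 to 12517 and -0.0405 for 12034 to 12041. Leaving libraries out at day 3 gave -0.0147 to 0.389 for 12034 to 12241, -0.351 to 0.450 for 12507 to 12517, -0.400 to 0.0186 for 12782 to 12931, -0.479 to 0.402 for 12167 to 12241, and -0.169 to 0.348 for 12423 to 12444.

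Deviations of same-numbered libraries correlated between -0.197 and 0.174, which showed no clear pairing by replicate number. For controls, each number averaged 2 libraries, 1 from each set. A pairing with 1 set alone could thus be missed, and 3 numbers per group cannot decide the question. With the replicate block, edgeR called 45, 36 and 23 sites at day 7, day 14 and between both days, and the counts over 5 segments did not change. Shares of the whole unit were not counted for this setting. The block ended the day 7 call of 12049 to 12141 among segments cut at depth steps (limma adjusted p = 0.0622). Few reads limit stretch 9, with 10 to 50 in the 4 control libraries that listed it. They also limit stretches 5 and 6, with control medians as low as 10. In stretch 1 no control library held 10 reads at any site.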
